A study of Homo sapiens with 6 samples.

Results

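Stanniocalcins are secreted glycoprotein hormones. They were first found in the corpuscles of Stannius of bony fish, where the hormone lowers calcium uptake at the gill. Mammals have a pair of paralogs, STC1 and STC2. STC1 is made in kidney and many other tissues and acts locally on calcium and phosphate transport, and STC2 is known as a gene that responds to stress of the endoplasmic reticulum through the transcription factor ATF4. Both genes are known to respond to hypoxia in human cells, and both proteins inhibit the pappalysins, the metalloproteinases that release insulin-like growth factors from their binding proteins.

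The transcripts examined were ENST00000290271 of STC1 and ENST00000265087 of STC2, 2 of the 203028 transcripts quantified. They were chosen by transcript ID with results of these data known. STC1 was selected on its strong fall in the comparison of PRPF39 shRNA with control shRNA, and STC2 was added as its paralog. The gene names came with that choice, since the data tables give transcript IDs alone. The changes of both transcripts in this comparison are therefore given as a description, with no p-value. The choice used no numerical threshold.

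HEK293, an established human embryonic kidney cell line, carried a lentiviral shRNA against PRPF39 in 3 libraries and a scrambled control shRNA in the other 3. Cells of both groups had been selected with puromycin for the integrated construct. PRPF39 is a protein of the U1 small nuclear ribonucleoprotein, the particle that recognises 5′ splice sites, and the study asked how gene expression and splicing differ when it is targeted. The labels do not say whether the 3 libraries of a group came from separate cultures or transductions, so the spread between them may be technical. The libraries held 113747941 to 246491084 estimated reads from polyadenylated RNA. The level of PRPF39 and the markers of the cell line were not analysed here, because the transcript IDs were not paired with gene names. In RNA from whole cultures, fewer cells with a transcript and less of it per cell cannot be told apart.

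The STC1 transcript fell to 12.9% of its control level in the PRPF39 shRNA libraries. Levels are in TPM, the quantifier's measure of abundance corrected for transcript length and library depth. STC1 stood at 1.11, 2.19 and 1.79 TPM in PRPF39 shRNA replicates 1, 2 and 3, against 12.2, 13.7 and 13.7 TPM in control replicates 1, 2 and 3. Every PRPF39 shRNA library was low and every control library high, with no overlap. A separation in this direction was found in 13.9% of the 13988 abundant transcripts described below, so it is not particular to STC1. For STC1 the lowest control library was 5.55 times the highest PRPF39 shRNA library. The means were 1.70 ± 0.54 TPM with PRPF39 shRNA and 13.2 ± 0.89 TPM with control shRNA (SD, n = 3 each), so that the control mean was 7.76 times the PRPF39 shRNA mean.

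The reads behind these STC1 levels were plentiful. The transcript, 3883 bases long, received 553, 662 and 1141 estimated reads in PRPF39 shRNA replicates 1, 2 and 3, against 4795, 6107 and 6102 in control replicates 1, 2 and 3. PRPF39 shRNA replicate 3 had the largest number of its group and also the deepest library. STC1 was not lost: in the PRPF39 shRNA libraries it still stood above 65.7%, 75.1% and 73.4% of the transcripts with reads in replicates 1, 2 and 3, against 92.4%, 93.7% and 93.6% in control replicates 1, 2 and 3. The gene lies on chromosome 8 from 23841929 to 23854806 in GRCh38.p14 (RefSeq), and it is protein-coding.

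The PRPF39 shRNA libraries differed among themselves in STC1. Their highest level, in replicate 2, was 1.97 times their lowest, in replicate 1. The exact Poisson 95% intervals, which cover counting error only, were 1.02 to 1.21 TPM for replicate 1, 2.03 to 2.36 TPM for replicate 2 and 1.69 to 1.90 TPM for replicate 3. These intervals do not overlap, so the 3 libraries differed by more than counting error. The coefficient of variation was 32.0% among PRPF39 shRNA libraries and 6.77% among control libraries. In CPM, reads scaled to library size with TMM normalization and not corrected for length, it was 33.8% among PRPF39 shRNA libraries and 16.5% among control libraries. In reads scaled to library size alone, without TMM factors, it was 33.2% among PRPF39 shRNA libraries and 12.0% among control libraries. The tightness of the control libraries thus depends on the unit. TPM differs from CPM by the TMM factors and by the effective lengths. The TMM factors were 0.996, 0.987 and 1.02 in PRPF39 shRNA replicates 1, 2 and 3, against 1.04, 0.943 and 1.01 in control replicates 1, 2 and 3. The library-wide mean effective length was 1218, 1174 and 1236 bases in PRPF39 shRNA replicates 1, 2 and 3, against 1267, 1134 and 1165 bases in control replicates 1, 2 and 3.

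**Figure D1:**
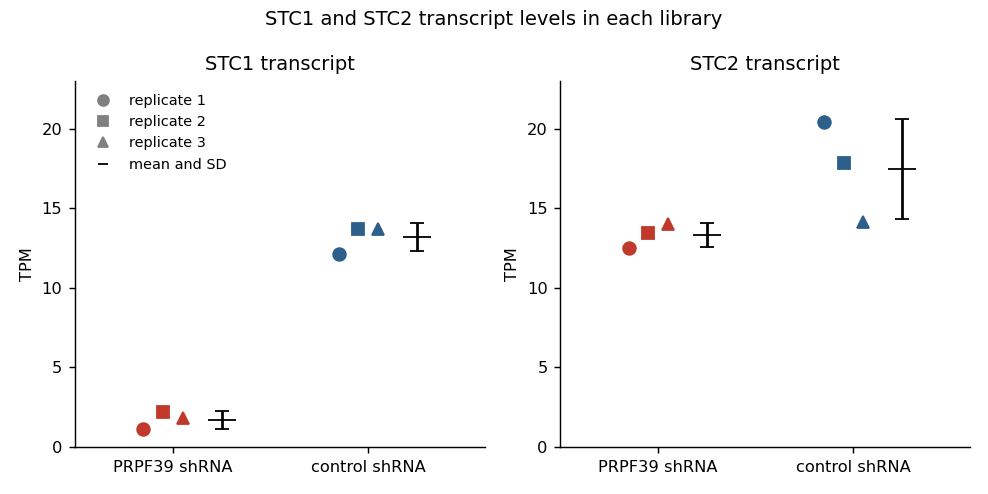
TPM of the STC1 transcript (left) and the STC2 transcript (right) in each library, with PRPF39 shRNA in red and control shRNA in blue; bars show the mean and SD of 3 libraries. STC1 sits between 1.11 and 2.19 TPM with PRPF39 shRNA and between 12.2 and 13.7 TPM with control shRNA, while control replicate 3 lies beside the PRPF39 shRNA libraries in STC2.

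STC2 differed far less. It stood at 12.5, 13.4 and 14.0 TPM in PRPF39 shRNA replicates 1, 2 and 3, against 20.4, 17.9 and 14.2 TPM in control replicates 1, 2 and 3. Control replicates 1 and 2 were high, and control replicate 3 was close to the PRPF39 shRNA libraries. The means were 13.3 ± 0.74 TPM with PRPF39 shRNA and 17.5 ± 3.16 TPM with control shRNA (SD, n = 3 each), so that the PRPF39 shRNA mean was 76.2% of the control mean. Control replicate 3 lay nearer to each PRPF39 shRNA library than to either of the other control libraries.

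All 9 pairs of a PRPF39 shRNA and a control library had the lower STC2 level in the PRPF39 shRNA library, but by a narrow margin in the closest pair. In TPM the same order held for 13.9% of the 13988 transcripts that averaged 10 CPM or more. The ratio of PRPF39 shRNA to control over the 9 pairs ran from 0.613 to 0.990 for STC2, against 0.0814 to 0.180 for STC1. PRPF39 shRNA replicate 3 had an exact Poisson 95% interval of 13.8 to 14.2 TPM and control replicate 3 one of 13.9 to 14.4 TPM. Their difference, 0.145 TPM, was smaller than its counting SE of 0.168 TPM, so this pair was not separated beyond counting error. In CPM the closest pair was PRPF39 shRNA replicate 2, at 69.7, and control replicate 3, at 72.1, and their difference of 2.35 CPM exceeded its counting SE of 1.03 CPM. STC2 received 7817 to 16906 estimated reads in the PRPF39 shRNA libraries and 12037 to 15403 in the control libraries over its 5353 bases. Its coefficient of variation was 5.58% with PRPF39 shRNA and 18.0% with control shRNA, so STC2 varied most in the control group and STC1 in the PRPF39 shRNA group.

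STC2 is protein-coding and lies on chromosome 5 from 173314723 to 173328414, on the minus strand, in GRCh38.p14 (RefSeq). The stretch around its start site is shown because the inputs to the gene named above, ATF4 and hypoxia, act through short DNA motifs. It runs from 250 bases before the start to 50 bases after it, chr5:173328365-173328664, minus strand, 5′ to 3′, and capitals mark matches to the motifs GCGTG and CCAAT on either strand.
STC2 promoter: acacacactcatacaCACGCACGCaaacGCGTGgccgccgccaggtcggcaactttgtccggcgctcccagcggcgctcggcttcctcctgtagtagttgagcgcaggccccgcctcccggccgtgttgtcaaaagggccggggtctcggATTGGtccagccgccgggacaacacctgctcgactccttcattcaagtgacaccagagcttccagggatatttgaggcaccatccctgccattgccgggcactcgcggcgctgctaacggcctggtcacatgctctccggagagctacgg

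Motifs were searched on both strands in this window and in 27305 RefSeq promoters of the same length. GCGTG, one form of the core that hypoxia-inducible factors bind, matched 3 times. Read along the gene's strand, the matches begin 235 and 231 bases before the start site on the opposite strand, where they overlap in 1 base, and 222 bases before it on the gene's strand. At least 1 GCGTG is present in 36.3% of the promoters. ACGTG, the other form of that core, had no match here and is present in 21.6% of promoters. CCAAT, the letters bound by nuclear factor Y, matched once, 100 bases before the start site on the opposite strand, and is present in 35.7%. TGATGNAA, the letters of the amino acid response element that ATF4 binds, had no match and is present in 3.67%, and TATAAA had none and is present in 12.0%. These matches describe the sequence alone, and no measurement here bears on what binds there.

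Within each library the pair can be compared without any scaling for depth, because both transcripts come from the same RNA. The ratio of STC1 to STC2 in TPM was 0.0889, 0.163 and 0.128 in PRPF39 shRNA replicates 1, 2 and 3, against 0.595, 0.766 and 0.968 in control replicates 1, 2 and 3. In TPM, control replicate 3 had nearly equal levels of both, and in the other libraries STC2 was the more abundant. With reads divided by annotated length, the ratio in control replicate 3 was 0.699, so the near equality depends on the effective lengths. By TPM, STC2 exceeded STC1 by 6.13 to 11.2 times in the PRPF39 shRNA libraries and by 1.03 to 1.68 times in the control libraries. The groups do not overlap, and the mean ratio was 0.127 ± 0.037 with PRPF39 shRNA and 0.776 ± 0.19 with control shRNA (SD, n = 3 each). Since STC1 was chosen on its fall, this separation is no separate finding, and neither are the sum and share below. Ratios of other transcript pairs were not examined.

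The 2 transcripts together summed to 13.6, 15.6 and 15.8 TPM in PRPF39 shRNA replicates 1, 2 and 3, against 32.6, 31.6 and 27.9 TPM in control replicates 1, 2 and 3. Their sum in the PRPF39 shRNA libraries averaged 49.0% of that in the control libraries. STC1 made up 8.17%, 14.0% and 11.3% of the sum in PRPF39 shRNA replicates 1, 2 and 3, against 37.3%, 43.4% and 49.2% in control replicates 1, 2 and 3. The control libraries thus held both paralogs at levels of the same order, and the PRPF39 shRNA libraries held mostly STC2.

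The size of the ratio depends on the quantifier's effective lengths. For STC2 the effective length, 5975 to 6061 bases over the 6 libraries, was above the annotated length of 5353 bases, while for STC1 it was 3119 to 3195 bases against 3883. With reads divided by annotated length in place of effective length, the mean ratio was 0.0911 with PRPF39 shRNA and 0.560 with control shRNA. The control libraries had a ratio 6.13 times that of the PRPF39 shRNA libraries by effective length and 6.14 times by annotated length.

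**Figure D2:**
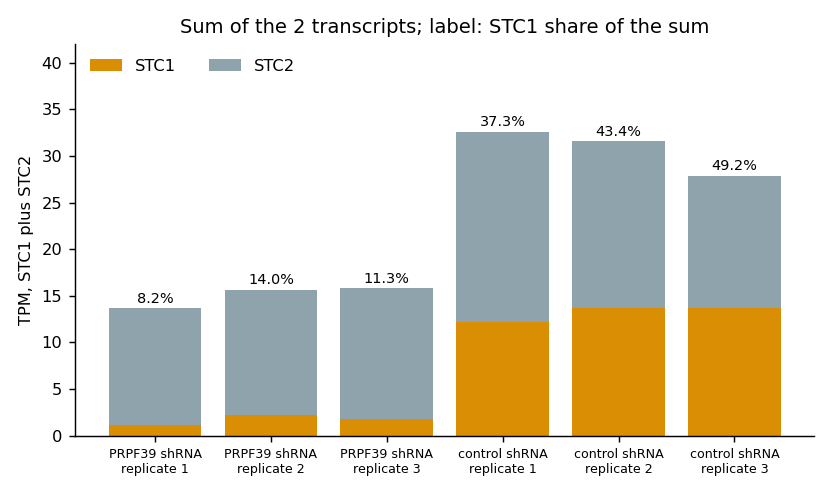
Stacked TPM of the STC1 (orange) and STC2 (grey) transcripts in each library, PRPF39 shRNA on the left and control shRNA on the right, with the STC1 share of the sum printed above each bar. The share is 8.17% to 14.0% with PRPF39 shRNA and 37.3% to 49.2% with control shRNA.

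The changes were then placed among those of all transcripts. Estimated counts were fitted with edgeR's quasi-likelihood model over 97571 transcripts that passed a filter on low counts, both members included. The fitted log2 change, PRPF39 shRNA over control shRNA, was -2.99 ± 0.28 (SE) for STC1 and -0.42 ± 0.13 (SE) for STC2. Of all transcripts fitted, 0.461% were called lower at a Benjamini-Hochberg adjusted p under 0.05, and of the 2 members 1, STC1, was among them. STC2 was not called. Since the comparison chose STC1, that count supports nothing.

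The outcome for STC2 changed when only transcripts averaging 5 CPM or more were tested. There 9.12% of 20223 transcripts were called lower, and both members were among them, with a log2 change of -0.46 for STC2. The direction of STC2 was the same in every fit made, but whether it was called differed between fits.

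Among the 13988 transcripts that averaged 10 CPM or more, STC1 had the third largest fall, a place that restates its choice on this fall. It met that average through the control libraries, with a mean of 35.3 CPM there against 4.44 CPM with PRPF39 shRNA. The next larger fall was a log2 change of -3.30 and the next smaller one -2.91. STC2 ranked 1348 from the largest fall, and 9.64% of these transcripts had a log2 change at or below its value. A change of its size in either direction was found in 23.4% of them, and 0.05% for a change of the size of STC1. Over all 97571 transcripts fitted, many of them with few reads, 0.468% had a log2 change at or below that of STC1 and 26.2% at or below that of STC2. The median log2 change was -0.02 over all 97571 transcripts and 0.06 over the 13988 that averaged 10 CPM or more. In TPM, all 3 PRPF39 shRNA libraries lay below all 3 control libraries for both members, and the same held for 13.9% of transcripts at this abundance.

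**Figure D3:**
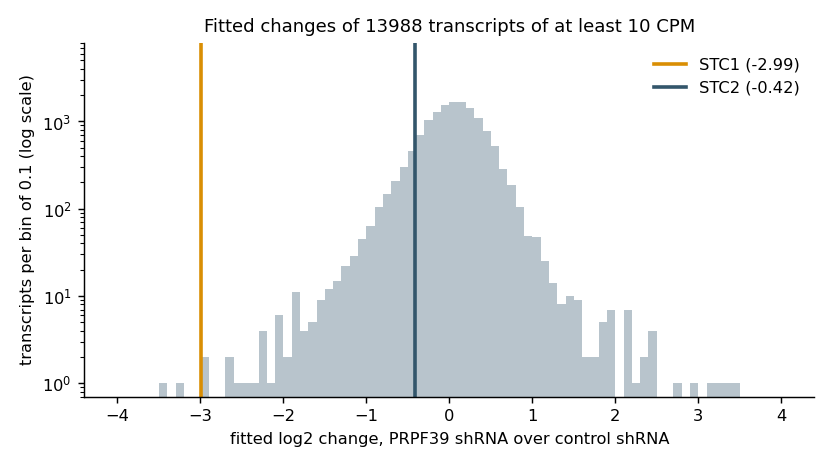
Fitted log2 changes, PRPF39 shRNA over control shRNA, of the 13988 transcripts that averaged 10 CPM or more (bins of 0.1, log-scaled counts), with STC1 and STC2 as vertical lines. STC1, at -2.99, lies at the far left edge, and STC2, at -0.42, lies on the left flank of the main body.

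The spread of STC1 among the PRPF39 shRNA libraries was also wide for a transcript of this table. The SD of its log2 CPM was 0.52 among PRPF39 shRNA libraries, larger than for 98.4% of the 13988 transcripts, whose median SD there was 0.12. In the control libraries it was 0.25, larger than for 74.6%. With PRPF39 shRNA, STC1 averaged 4.44 CPM, below the 10 CPM on which these transcripts were chosen, so it is set against more abundant ones. STC2 had an SD of 0.08 with PRPF39 shRNA and 0.26 with control shRNA, larger than for 29.6% and 76.9% of the transcripts.

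The transcripts whose levels over the 6 libraries most resembled each member were found by the root mean square difference of log2 CPM after each profile was centred on its mean. The most similar to STC1 among 13987 others were ENST00000540159 (3066 bases) and ENST00000639739 (1626 bases), with differences of 0.308 and 0.314 on the log2 scale. ENST00000540159 stood at 2.13, 3.61 and 3.34 TPM in PRPF39 shRNA replicates 1, 2 and 3, against 12.3, 18.9 and 21.9 TPM in control replicates 1, 2 and 3. ENST00000639739 stood at 2.26, 3.75 and 2.80 TPM in PRPF39 shRNA replicates 1, 2 and 3, against 15.7, 15.3 and 15.6 TPM in control replicates 1, 2 and 3. As in STC1, replicate 1 was the lowest of the PRPF39 shRNA libraries in both, a likeness that the way they were picked favours. Their log2 changes were -2.60 ± 0.33 and -2.44 ± 0.22 (SE). No gene name was paired with either ID here.

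The most similar to STC2 were transcripts of 3365 and 3812 bases, with differences of 0.053 and 0.064. These differences cannot be set against those for STC1, because the measure grows with the size of the change, and by Pearson correlation the matches were 0.987 and 0.998 for STC1 and 0.978 and 0.983 for STC2. The first stood at 8.53, 8.30 and 8.40 TPM in PRPF39 shRNA replicates 1, 2 and 3, against 12.4, 11.5 and 8.77 TPM in control replicates 1, 2 and 3. The second stood at 5.80, 6.23 and 5.96 TPM in PRPF39 shRNA replicates 1, 2 and 3, against 8.34, 7.45 and 5.98 TPM in control replicates 1, 2 and 3. Both shared with STC2 the position of control replicate 3 next to the PRPF39 shRNA libraries, a likeness that the way they were picked favours. The difference between STC1 and STC2 was 1.35. By this measure STC2 ranked 1314 among the 13987 others in likeness to STC1, and STC1 ranked 13945 in likeness to STC2. The second rank reflects the large change of STC1, with which the measure grows. By Pearson correlation, STC2 ranked 1648 in likeness to STC1, and STC1 ranked 520 in likeness to STC2. The Pearson correlation of STC1 with STC2 over the 6 libraries was 0.81, which is a description of 6 points that share 2 groups.

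**Figure D4:**
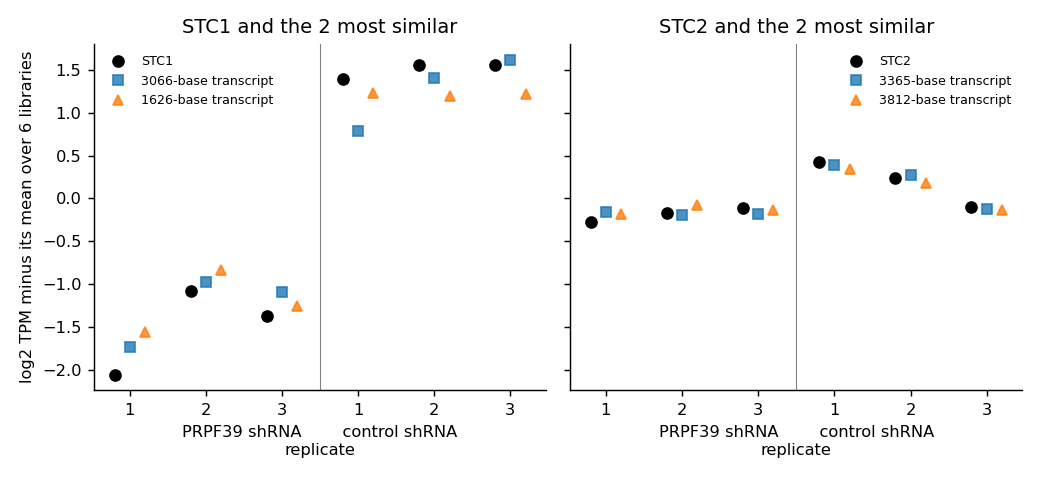
Log2 TPM minus its mean over 6 libraries for STC1 (left) and STC2 (right) in black, with the 2 transcripts most similar to each in colour; within each panel PRPF39 shRNA libraries stand left of the line and control libraries right of it. The STC1 panel shows PRPF39 shRNA libraries far below control libraries, and the STC2 panel shows control replicate 3 at the height of the PRPF39 shRNA libraries.

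Which library was left out mattered in different ways for each member. STC1 had log2 changes of -3.25 to -2.76 when each library was left out in turn, and with 5 libraries it was called in none of these 6 fits. STC2 had log2 changes of -0.54 without control replicate 3 and of -0.31 without control replicate 2, the ends of its range, and it too was called in none. Few transcripts of any kind were called in these fits. The fewest were 0 of 102443 without PRPF39 shRNA replicate 3, and the most 22 of 102783 without PRPF39 shRNA replicate 1. The absence of a call with 5 libraries is thus not particular to either member. The difference between the log2 changes of STC1 and STC2 was -2.58 with all libraries. With 1 added to the TPM before taking logs it was -2.06, since this shrinks the change of a transcript at low level.

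**Figure D5:**
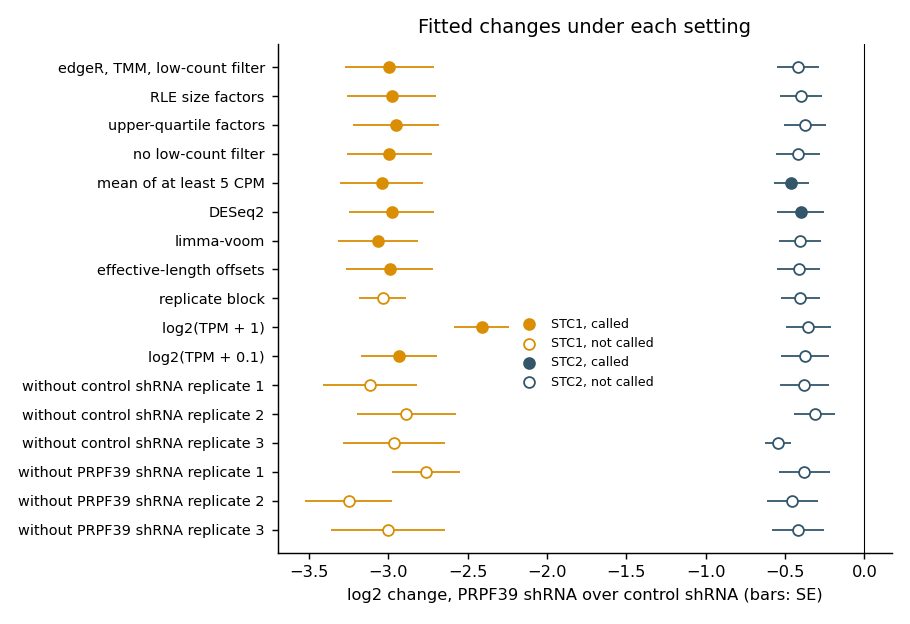
Log2 changes with SE of STC1 (orange) and STC2 (dark) under each processing setting and with each library left out; filled points were called at an adjusted p under 0.05, open points were not. STC1 lies between -3.25 and -2.41 and STC2 between -0.54 and -0.31, and both stay below 0 throughout.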

How the data were processed

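Per the file headers, each of the 6 libraries came as 1 table with a read number, a TPM value, a length and an effective length for each transcript. The authors deposited estimated counts, which are mostly not whole, and TPM values that use each library's own effective lengths. The submitters' processing notes name build hg38 and, as tools, Salmon 0.11.1, STAR 2.7.9a, cutadapt 2.1, and DESeq2 1.32.0; options and annotation release are not given in the sources used here. Salmon divides reads between transcripts that share sequence, so each level is an estimate for 1 transcript, and other transcripts of STC1 and STC2 were not identified here.

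Estimated counts were rounded and fitted with edgeR 4.0.16 (R 4.3.3; filterByExpr with minimum count 10, TMM, quasi-likelihood test of group, no covariate). Log2 CPM used a prior count of 2. The SE is the log2 change divided by the square root of F. Poisson intervals treat reads as independent molecules. Libraries of a group differed beyond sampling noise (chi-square per degree of freedom at least 32), so none was counted as a duplicate. The members, lists and motifs were chosen with earlier results of these data known. Named transcripts are the members and the 2 most similar to each of at least 10 CPM; IDs are printed for 2 of these. Alternatives were other size factors (RLE, upper quartile), no filter, only transcripts averaging 5 CPM or more, effective-length offsets, limma-voom (limma 3.58.1), DESeq2 1.42.0, log2(TPM + 1) and log2(TPM + 0.1) with limma, a replicate block, and leaving out each library. Lists of related genes and cell line markers were planned and not analysed here, because the IDs were not paired with genes.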

Additional observations from a re-analysis of the deposited data

How the results depend on the processing

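STC1 was lower with PRPF39 shRNA in all 16 alternatives, with log2 changes of -3.25 to -2.41, and so was STC2, at -0.54 to -0.31. The call of STC1 ended when any library was left out (-3.25 to -2.76) and with the replicate block (-3.04), and stood in the other 9. STC2 became called at a mean of at least 5 CPM (-0.46) and with DESeq2 (-0.40). The DESeq2 call of STC2 lay just inside the threshold, in a fit that called 4126 of 97571 transcripts lower. STC1 minus STC2 was -2.06 with log2(TPM + 1) and otherwise within the spread of libraries of its -2.58. The calls over all transcripts, 882 with edgeR, were 3574 at a mean of at least 5 CPM, 9024 with DESeq2, 0 with the replicate block (edgeR; 14264 at an unadjusted p under 0.05) and 0 to 22 with a library left out; the 0 was without PRPF39 shRNA replicate 3 (edgeR; 11672 at an unadjusted p under 0.05). The cause of these differences was not tested. Replicate numbers were not used as a pairing, since the labels tie them to nothing shared: deviations of same-numbered libraries correlated at 0.07, 0.02 and 0.01. The mean ratio of STC1 to STC2 was 0.0661 with PRPF39 shRNA and 0.406 with control shRNA in estimated counts, and 0.0911 and 0.560 per annotated length, a choice added after the data were seen; these differ from TPM by construction. By Pearson correlation, 1 of the 4 most similar transcripts was the same. With 3 libraries a group, a difference the size of that in STC2 lies near the spread of the control libraries.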
